A study of Mus musculus with 72 samples.

Results

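OCT4, the POU-domain transcription factor encoded by Pou5f1, was mapped by ChIP-seq in mouse embryonic stem cells (ESCs) that either carry or lack the nucleosome-binding proteins HMGN1 and HMGN2. The 4 OCT4 peak lists described here, of 64 peak lists and 72 samples in the series, were taken as a whole: 2 came from WT cells (Hmgn1+/+n2+/+) and 2 from DKO cells (Hmgn1-/- n2-/-), both of strain C57BL/6, and the labels give no other treatment. The 81373 peaks of the 4 lists were merged wherever they shared at least 1 bp, which gave 35163 sites, and each site was classed by the libraries that called it. The question the comparison addresses is where OCT4 was detected on chromatin when both HMGN proteins were present and when both were absent. The study describes the replicates as biological, and the sources used here do not say whether they came from separate lines or cultures, so the p-values below measure the spread between these libraries. The lists hold no measure of HMGN1 or HMGN2, so the deletion itself was not checked here.

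OCT4 recognises the octamer ATGCAAAT through a pair of DNA-binding domains. In ESCs it commonly binds together with the HMG-box factor SOX2 at a composite element, in which a SOX motif is followed directly by an octamer-like motif, and this pair acts with NANOG at enhancers of pluripotency genes, including those of Pou5f1, Sox2 and Nanog themselves. Most such sites lie away from promoters. OCT4 can also engage DNA wrapped on nucleosomes. The label of the cells was compared with marker genes: of 10 ESC markers (Pou5f1, Sox2, Nanog, Klf4, Esrrb, Zfp42, Tfcp2l1, Dppa3, Fgf4 and Tdgf1), 9 were assigned an OCT4 site called in all 4 libraries, against 2 of 10 fibroblast markers and 2 of 10 B cell markers. A site was assigned to the 1 gene with the nearest protein-coding start, at most 100 kb away, so a gene without an assigned site may still have one nearby that lies closer to another gene. Over all 22238 protein-coding genes the share with such a site was 22.5%. This is a check on binding near the genes, not on their expression.

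The sequences below show the motif where it occurs in each class. They were taken only from sites that hold a match, which most sites do not, so they are not typical of a class. Each of the 12 stretches below is from mm9, written 5′ to 3′ on the strand of the motif, with the match closest to the composite element (CATTGT, any 1 base, ATGCAAAT, with at most 3 mismatches over the 14 fixed letters) or the plain octamer in capitals. The first 4 are at genes of the pluripotency network, the site near Pou5f1 lying in the region of its distal enhancer and that near Sox2 in the region of its downstream enhancer, and all 4 were called in every library. The composite matches at Sox2 and Nanog had 1 mismatch each, and that at Pou5f1 had 3.
Pou5f1, chr17:35640969-35641033, minus strand: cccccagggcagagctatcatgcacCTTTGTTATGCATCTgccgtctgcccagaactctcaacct
Sox2, chr3:34552946-34553010, plus strand: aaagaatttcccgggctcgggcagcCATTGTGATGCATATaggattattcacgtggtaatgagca
Nanog, chr6:122657406-122657470, minus strand: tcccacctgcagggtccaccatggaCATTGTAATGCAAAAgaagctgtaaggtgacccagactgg
Esrrb, chr12:87849509-87849566, minus strand: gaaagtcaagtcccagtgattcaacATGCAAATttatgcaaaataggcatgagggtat

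The next 3 are from the strongest sites called in all 4 libraries that held a match. The Diap3 and Lats2 stretches carry an intact octamer inside a composite match with 2 mismatches. The site nearest Gm4609 differs from the others: its summit window of 201 bp matches itself at 67.8% of positions when shifted by 21 bp, so the sequence is a tandem repeat in which CATTGT recurs.
Gm4609, chr3:121848414-121848478, minus strand: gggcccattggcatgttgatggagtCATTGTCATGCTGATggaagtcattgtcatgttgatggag
Diap3, chr14:86795974-86796038, minus strand: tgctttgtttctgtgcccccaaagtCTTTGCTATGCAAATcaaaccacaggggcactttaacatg
Lats2, chr14:58351647-58351711, minus strand: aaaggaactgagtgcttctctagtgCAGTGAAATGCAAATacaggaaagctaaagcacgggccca

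The last 5 are from sites called in one genotype only: 2610039C10Rik, Fez1 and Rpp25 from sites called in both DKO libraries only, and Kcnj2 and Zfp536 from sites called in both WT libraries only. The stretches at Fez1 and Zfp536 hold the intact octamer. Motif matches are therefore present among the strongest sites of all 3 classes, and their shares are given further on.
2610039C10Rik, chr16:90658521-90658585, minus strand: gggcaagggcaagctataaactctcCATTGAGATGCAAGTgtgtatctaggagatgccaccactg
Fez1, chr9:36689713-36689770, plus strand: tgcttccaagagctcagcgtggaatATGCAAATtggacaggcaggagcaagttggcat
Rpp25, chr9:57358534-57358598, plus strand: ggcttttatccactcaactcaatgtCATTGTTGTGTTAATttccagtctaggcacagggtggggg
Kcnj2, chr11:111258965-111259029, plus strand: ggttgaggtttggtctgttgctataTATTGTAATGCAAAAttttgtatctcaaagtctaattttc
Zfp536, chr7:38379742-38379806, minus strand: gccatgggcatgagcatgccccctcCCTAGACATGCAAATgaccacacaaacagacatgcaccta

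OCT4 peaks were more numerous in the DKO cells, both at promoters and away from them. The lists held 11140 and 12627 peaks in WT replicates 1 and 2, and 26742 and 30864 in DKO replicates 1 and 2. Both DKO lists were longer than both WT lists, by 2.42-fold on average (log2 difference 1.28, SE 0.12, n = 2 per genotype, adjusted p = 0.00482 by limma over the 16 antibodies of the series). By the same test 12 of the 16 antibodies differed between genotypes in peak number, in either direction, which is 75.0%, so most antibodies of the series met the same threshold. Without WT replicate 1 the adjusted p was 0.0567, and over all alternatives it ranged from 0.000189 to 0.0567. An exact permutation test of 2 against 2 libraries cannot give a two-sided p below 0.333.

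Promoter peaks are those with any part at most 1000 bp from where a protein-coding transcript begins. WT lists held 657 and 802 of them, and DKO lists 2130 and 2612. The rise was 3.25-fold (log2 difference 1.70, SE 0.18, adjusted p = 0.0056), where 11 of 16 antibodies (68.8%) were called in either direction, and leaving out DKO replicate 2 gave an adjusted p of 0.0513. The other, distal peaks amounted to 10483 and 11825 in the WT lists and to 24612 and 28252 in the DKO lists, a rise of 2.37-fold (log2 difference 1.24, SE 0.11, adjusted p = 0.00435), where 13 of 16 antibodies (81.2%) were called.

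The promoter share of the peaks was 5.90% and 6.35% in WT and 7.96% and 8.46% in DKO, so it was small in every library and higher in both DKO libraries. The ratio of promoter to distal peaks rose by 0.46 on the log2 scale (SE 0.07, adjusted p = 0.0218), with 9 of 16 antibodies called (56.2%). This call did not hold in a smaller fit: without any 1 of the 4 libraries the adjusted p was between 0.052 and 0.138. It also did not hold when each library was reduced to its 11140 strongest peaks, which left a log2 difference of 0.14 (adjusted p = 0.112).

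**Figure D1:**
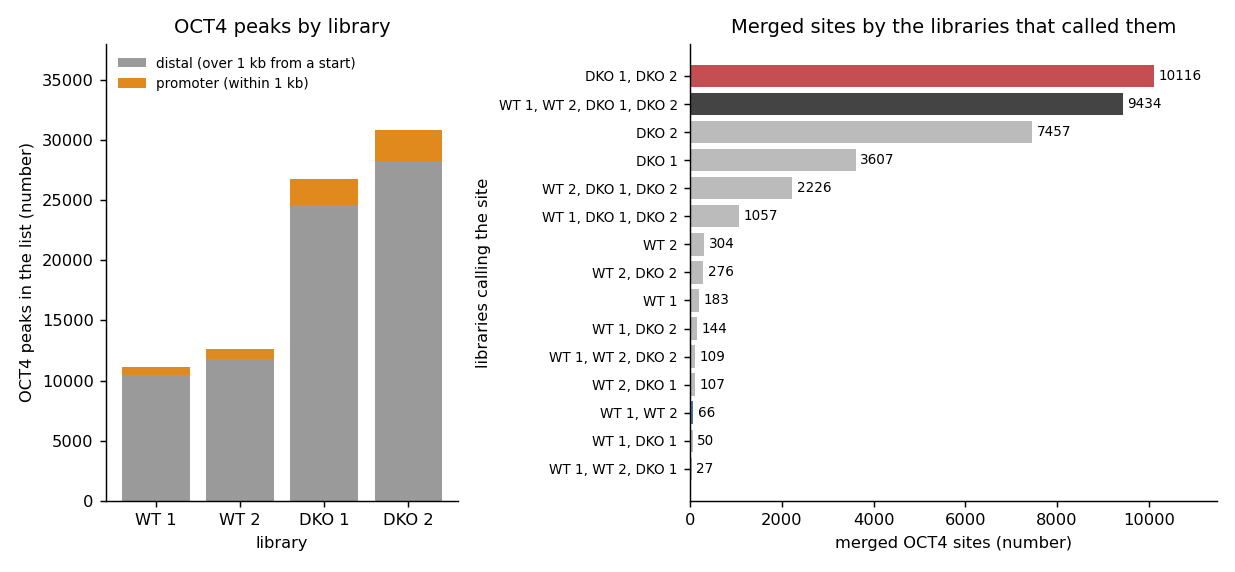
Left, number of OCT4 peaks in each of the 4 libraries, with distal peaks in grey and promoter peaks in orange; right, number of merged sites for each combination of libraries that called them. The DKO lists hold 26742 and 30864 peaks against 11140 and 12627 in WT, and the largest combinations are both DKO libraries (10116 sites) and all 4 libraries (9434 sites), with 66 sites for both WT libraries alone.

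Nearly every site found in WT cells was also found in DKO cells, while many DKO sites had no WT peak. Of 9636 sites called in both WT libraries, 97.9% were called in both DKO libraries as well, 99.3% in at least 1 DKO library, and 66 sites (0.685%) in neither. Of 22833 sites called in both DKO libraries, 41.3% had a peak in each WT library and 10116 (44.3%) had none in WT. Over the 35163 sites, 9434 (26.8%) were called in all 4 libraries, 10116 (28.8%) in both DKO libraries only and 66 (0.188%) in both WT libraries only. The remaining 15547 sites had other patterns, most often a call in DKO replicate 2 alone (7457 sites) or DKO replicate 1 alone (3607 sites). These counts are descriptions and carry no test.

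The class sizes rest on where each list ends, since a site counts as absent when it falls below the caller's threshold. With the 11140 strongest peaks of each library, 7773 sites were called in all 4, 1129 in both DKO libraries only and 891 in both WT libraries only. The number of WT-only sites was 370, 249 and 175 when WT replicate 1, WT replicate 2 or DKO replicate 2 was left out. The number of DKO-only sites was 17573 without DKO replicate 1. Leaving out a library asks for fewer calls or fewer absences, so these counts could only rise and do not test the classes.

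OCT4 signal was also higher in DKO cells at the sites that both genotypes shared. Strength is given as fold enrichment, the read pileup at the summit plus 1 divided by the caller's local background plus 1. At the 9434 sites called in all 4 libraries the median fold enrichment was 11.7 and 12.4 in WT and 22.5 and 24.5 in DKO. At 8605 of these sites (91.2%) both DKO values were above both WT values, and at 103 sites (1.09%) both were below. The median site rose 1.91-fold (log2 change 0.93, with the 10th and 90th percentiles of sites at 0.29 and 1.52). In a limma fit of the log2 values, 8138 sites were higher in DKO (86.3% of those tested) and 36 were lower (0.382%) at an adjusted p under 0.05.

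No spike-in is described in the sources used here, so the values have no outside scale. When each library was centred on its own median, 1502 sites were called higher and 1885 lower, since centring removes a shift common to all sites. The local background also differed between genotypes: as a multiple of the lowest background in the list, its median over peaks was 1.6 and 1.62 in WT and 1.25 and 1.30 in DKO. With the pileup divided by the lowest background of its own list instead, the median rise was 1.66-fold (log2 change 0.73), 7794 sites were called higher and 34 lower, and 7429 of the sites called higher were shared with the first fit (91.3% of its calls and 95.3% of the calls on the other scale). Of the 36 sites called lower, 12 were called lower on both scales. Which input each OCT4 library was set against is not given in the sources used here, and the part of the input in these values was not tested.

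**Figure D2:**
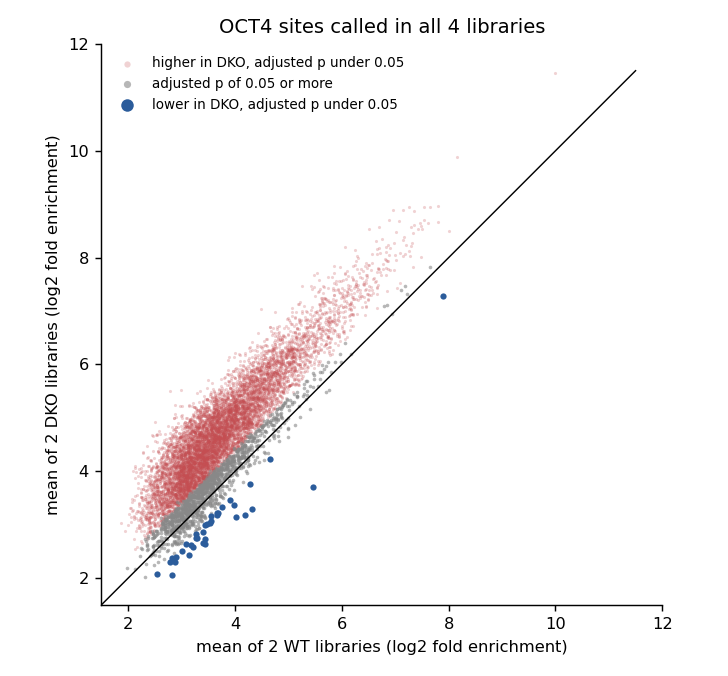
Each point is 1 of the 9434 OCT4 sites called in all 4 libraries, with the mean log2 fold enrichment of the 2 WT libraries on the horizontal axis and of the 2 DKO libraries on the vertical axis; the line marks equal values. Most points (8138, red) lie above the line as sites called higher in DKO, and 36 blue points lie below it as sites called lower.

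Sites called in DKO cells only were weaker than the shared ones. Their median fold enrichment was 8.09 and 8.58 in the DKO libraries, against 22.5 and 24.5 at the shared sites in the same libraries, and their 90th percentiles were 13.3 and 14.3. The 66 WT-only sites had 6.26 and 6.39 in the WT libraries, against 11.7 and 12.4 at the shared sites there; WT-only and DKO-only sites were measured in different libraries, so their levels are not ranked. When the 22833 sites called in both DKO libraries were divided into 5 strength groups of equal size by their DKO fold enrichment, 86.5% of the weakest group (fold enrichment 3.26 to 7.54) and 0.679% of the strongest group (24.6 and above) were DKO-only, while the all-4 share went from 3.96% to 97.6%. The classes were set by the calls themselves, so these shares are a description.

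**Figure D3:**
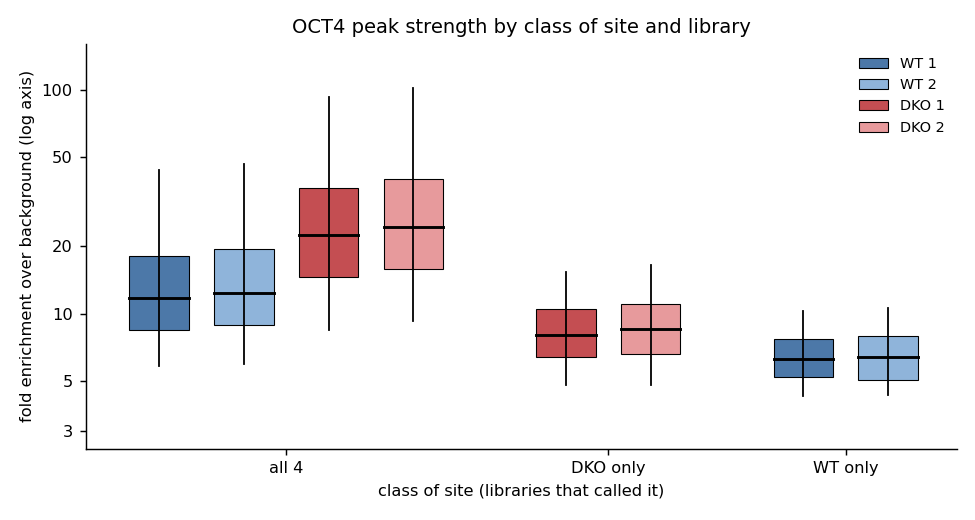
Fold enrichment of OCT4 peaks on a log axis by class of site and library; boxes span the 25th to 75th percentiles of sites with the median as a line, and vertical lines span the 5th to 95th. Sites called in all 4 libraries have medians of 11.7 and 12.4 in WT and 22.5 and 24.5 in DKO, DKO-only sites 8.09 and 8.58, and WT-only sites 6.26 and 6.39.

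DKO-only sites lay near promoters more often than shared sites. Of the 10116 DKO-only sites, 911 (9.01%, 95% Wilson interval 8.46 to 9.58) were within 1000 bp of a protein-coding start, against 596 of 9434 shared sites (6.32%, 5.84 to 6.83) and 1 of 66 WT-only sites (1.52%, 0.268 to 8.1). The intervals cover counting error only, and sites of 1 library pair are not replicates. The promoter share also fell with strength. From the weakest strength group upward, and without the strongest, it was 9.97%, 8.94%, 8.1% and 7.07% among DKO-only sites and 8.84%, 7.03%, 6.84% and 6.84% among shared sites. The share was higher among DKO-only sites in each of these 4 groups, by less than over the whole classes. In the strongest group, which holds only 31 DKO-only sites, the order was the other way, with 3.23% of DKO-only and 5.63% of 4458 shared sites. With the 11140 strongest peaks of each library the shares were 8.06% for DKO-only and 6.27% for shared sites.

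By their summits, 59.2% of shared and 55.8% of DKO-only sites were intergenic, 38.6% and 40.3% were in introns, and 2.15% and 3.88% in exons. The median distance to a protein-coding start was 31.6 kb for shared and 27.1 kb for DKO-only sites. DKO-only sites were no farther from shared sites than shared sites were from each other, with a median of 56.8 kb against 60.8 kb. At the level of genes, 5504 protein-coding genes were assigned at least 1 DKO-only site. Of these, 2304 (41.9%) also had a site called in all 4 libraries, and 2674 (48.6%) had no assigned OCT4 peak in either WT library. Etl4, which was assigned 13 DKO-only and 15 shared sites, had the most of both. Next came Grik3, a kainate receptor gene, with 11 DKO-only sites, and Jarid2, a cofactor of Polycomb repressive complex 2, with 11 shared sites. These genes were picked after their counts were seen.

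The OCT4 motif was present under sites of every class, well above its level nearby. The octamer, read on either strand up to 100 bp from the summit, was found at 14.9% of shared, 12.9% of DKO-only and 12.1% (8 of 66) of WT-only sites. At positions 5000 bp from the same summits the shares were 1.14%, 1.1% and 1.52%, and over all genome windows of that length the share was 1.74%. The composite element was found at 29.4% of shared, 22.2% of DKO-only and 12.1% of WT-only sites, against 3.33% of all windows and 1.08% of windows at protein-coding starts. A composite match can overlap an octamer match, so these shares do not add.

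The composite share followed the strength of the peak. Among DKO-only sites it was 17.0%, 23.5%, 27% and 29.8% over the same 4 strength groups from the weakest upward, and among shared sites 8.84%, 20.4%, 22.6% and 27.1%. In these 4 groups the share was higher among DKO-only sites, although over the whole class it was lower. In the strongest group it was 29.0% of the 31 DKO-only and 34.8% of the shared sites. At promoters the composite was rarer, with 19.5% of shared and 11.1% of DKO-only promoter sites against 30.1% and 23.3% of distal ones. Motifs of other factors stood closer to their nearby level: the KLF motif GGGTGTGG was at 2.25% of shared and 3.14% of DKO-only sites (1.39% and 1.69% nearby), the ESRRB motif CAAGGTCA at 3.34% and 3.72% (1.31% and 1.39% nearby), the SOX motif CCATTGTT at 2.52% and 2.18% (0.901% and 0.86% nearby), and the AP-1 motif TGANTCA at 6.9% and 6.74% (5.98% and 5.82% nearby). A match is a run of letters, not a site shown to be bound.

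**Figure D4:**
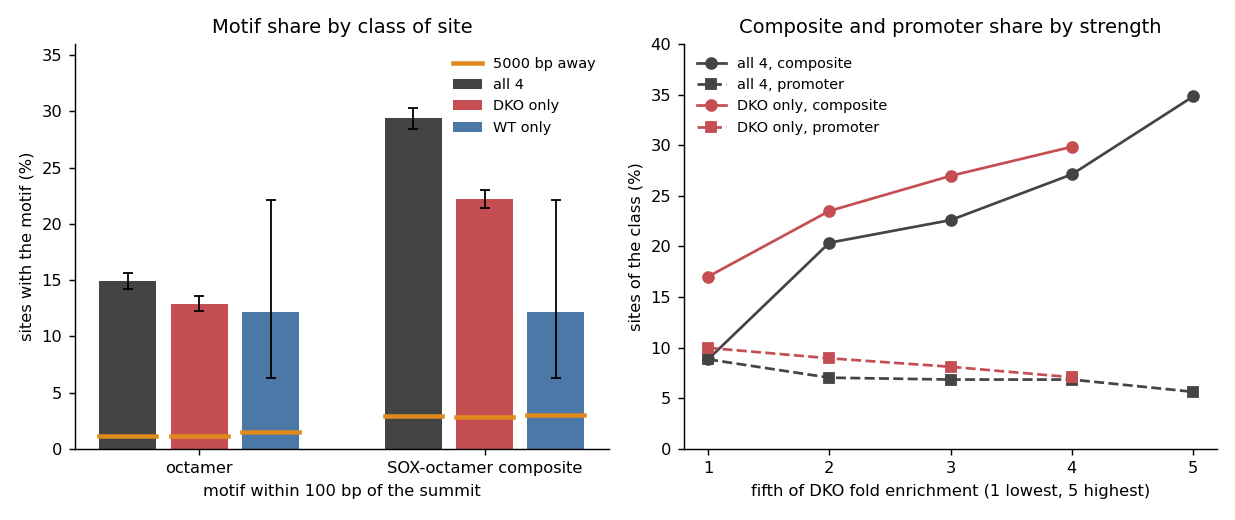
Left, share of OCT4 sites of each class with the octamer or the composite element within 100 bp of the summit, with 95% Wilson intervals for counting error and an orange line for the share 5000 bp away; right, composite share (circles) and promoter share (squares, dashed) by strength group of DKO fold enrichment, for classes with at least 100 sites in the group. The composite share rises with strength from 17.0% to 29.8% at DKO-only sites and from 8.84% to 34.8% at shared sites, while the promoter share falls.

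Shared sites overlapped the other pluripotency factors most. They were also stronger and wider, with a median width of 473 bp against 308 bp for DKO-only and 260.5 bp for WT-only sites. The part of width and strength in these overlaps was not tested. A NANOG site called in both WT libraries overlapped 69.3% of shared, 49.8% of DKO-only and 25.8% (17 of 66) of WT-only OCT4 sites, and the shares for SOX2 were 38.3%, 13.2% and 6.06%. In number, 5037 DKO-only OCT4 sites lay where NANOG was already called in both WT libraries, and 34.6% of DKO-only sites overlapped no NANOG peak of any library. SOX2 lists were themselves longer in DKO: sites called in both DKO but not both WT libraries overlapped another 11.4% of shared and 10.2% of DKO-only OCT4 sites. SOX2 and NANOG, both called in both WT libraries, were together at 38.3% of shared and 13.2% of DKO-only sites. KLF4 overlapped 7.5% and 4.01%, and the insulator protein CTCF, which is not part of this network, 4.74% and 4.67%. None of the 4 factors had a peak in any library at 21.0% of shared, 32.6% of DKO-only and 56.1% of WT-only sites. The factor lists differ in length, from 3045 sites in both WT libraries for KLF4 to 58820 for CTCF, so shares are compared between classes and not between factors.

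The size of the rise at shared sites is given here by the other factors found there, as medians with no test of the difference. At the 6535 sites that overlapped a NANOG site called in both WT libraries the median log2 change was 1.03, and at the other 2899 it was 0.68. With the pileup over the lowest background the values were 0.79 and 0.54. For SOX2 the medians with and without a site called in both WT libraries were 1.12 and 0.80 (0.84 and 0.64 on the other scale), for KLF4 1.23 and 0.91 (0.85 and 0.72), and for CTCF 0.93 and 0.93. This split by WT lists was added after seeing the data, because the factor lists of the DKO cells were longer. With a NANOG peak of any library instead (7321 sites) the medians were 1.0 and 0.63. Promoter sites had a median of 0.86 and distal sites of 0.93 (0.67 and 0.73 over the lowest background). The median ratio of the WT to the DKO background was 1.25 with and 1.12 without NANOG, 1.32 with and 1.15 without SOX2 and 1.46 with and 1.19 without KLF4, while at promoter and distal sites it was 1.22 and 1.21; its part in these values was not tested.

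Chromosomes 14 and X stood apart at the shared sites. On chromosomes 1 to 19 the median log2 change lay between 0.80 (chromosome 14) and 1.02 (chromosome 12), while the 253 sites of chromosome X had 0.60. With the pileup over the lowest background chromosome X had 0.73, within the range of the others, and chromosome 14 had 0.47 against 0.67 or more elsewhere. The ratio of WT to DKO background was 0.87 on chromosome X, where it was between 1.14 and 1.38 on the others, with chromosome 14 at the top.

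The strongest OCT4 sites were shared and distal. The site nearest Gm4609, with the tandem repeat printed above, had a fold enrichment of 1015 and 1016 in WT and 2809 and 2847 in DKO. It was the highest in every library. The next was 697 kb from the start of Diap3, a formin that nucleates actin filaments, with 284 and 290.2 in WT and 901 and 980 in DKO. A site in an intron of Lats2, a Hippo pathway kinase, 1457 bp from its start, had 177 and 197 in WT and 477 and 514 in DKO. Others of the top 10 were nearest Zfp36l1, which promotes decay of AU-rich mRNAs, Fat1, a large cadherin, Plcl2, 3300002A11Rik, Ssr2, Mfap1b and Tox, an HMG-box protein. The 10 sites ranged from 115 to 1015 in WT replicate 1 and from 388 to 2809 in DKO replicate 1. A NANOG peak overlapped 10 of them and a SOX2 peak 9. In all 10 the DKO values were above the WT values.

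The strongest shared promoter sites were at Cnpy1 (155 and 168 in WT, 342 and 365 in DKO), Kdm3b, Tcfe3, Uhrf2 and Hsp90aa1. The summits at Kdm3b and Uhrf2 lay 1781 bp and 1303 bp from the start, so these sites count as promoter sites by their edge only. Kdm3b encodes a histone demethylase, Tcfe3 a bHLH factor, now named Tfe3, that acts in the exit from naive pluripotency, and Uhrf2 a reader of modified cytosine. Hsp90aa1, a stress-inducible chaperone, had the smallest rise of the 5, from 100 and 105 in WT to 171 and 186 in DKO.

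The strongest DKO-only sites lay well above the median of their class. The top was in an intron of Lrtm2 (36.8 and 48.8 in the DKO libraries, with no peak in either WT library), followed by sites nearest Atp11b (46.4 and 43.2), 2610039C10Rik (39.3 and 41.1) and Fez1, which acts in axon growth (36.7 and 34.6). The summit window near Atp11b is repetitive, as it matches itself at 71.3% of positions at a shift of 58 bp. The others of the 10 were nearest Mrgprb1, Rpp25, Tyw3, Tns3, Gm17624 and Gnai2, and 7 of the 10 overlapped a NANOG peak and 7 a SOX2 peak. At promoters the strongest were at Narfl (25.4 and 25.1), Tbx6, a T-box factor of presomitic mesoderm (23.6 and 23.0), Mcart6, Zranb3 and Rpp40.

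The WT-only sites were few. The strongest, 332 kb from the start of the potassium channel gene Kcnj2, had 20.9 and 16.2 in the WT libraries, and the next, in an intron of the zinc-finger gene Zfp536, had 13.2 and 15.6. The other 8 of the top 10, nearest Ccdc50, Efnb2, Hoxd1, Olfr464, Kdm3b, Setd7, Mzt1 and Gpc5, lay between 7.6 and 11.1 in both WT libraries. The single WT-only promoter site was 939 bp upstream of Setd7, a lysine methyltransferase gene (9.05 and 8.57). None of the 66 was on chromosome X, which held 1.92% of all OCT4 sites, so a count of 0 says little.

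The largest rises among shared sites were 2.23 to 2.73 on the log2 scale. The site nearest Nwd1, in one of its introns, went from 6.58 and 7.23 in WT to 42.4 and 49.1 in DKO (log2 change 2.73, SE 0.17, adjusted p = 1.73e-08 by limma over the 9434 sites). That nearest Svip went from 21.2 and 23.9 to 133 and 130.4, and that nearest Cuedc1 from 7.74 and 8.12 to 45.5 and 46.6. The other 5 of the 8 largest were nearest Gm5444, Dnajb9, Gon4l (a promoter site), Themis and Gpt2. All 8 had a higher background in WT, by 1.61 to 3.55 times, and with the pileup over the lowest background their log2 changes were 0.96 to 1.99.

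The largest falls were smaller. The site nearest Tnks, which encodes a poly-ADP-ribosyltransferase that acts at telomeres and in Wnt signalling, went from 39.4 and 49.8 in WT to 13.3 and 12.7 in DKO (log2 change −1.77, SE 0.18, adjusted p = 1.4e-07). Its pileup fell from 82 and 135 reads to 37 and 42. Sites nearest AI316807 and Zfp619 fell by 1.03 and 0.87 on the log2 scale, and by 1.42 and 1.37 with the pileup over the lowest background. The falls nearest Ube2e2, Ccdc67 and Usp11 did not hold on that scale (adjusted p = 0.0843, 0.73 and 0.0752). Of the 36 sites called lower, 41.7% overlapped a NANOG peak, against 81.7% of those called higher. The share was 52.2% of the 1260 sites not called and 77.6% of all shared sites.

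Pluripotency regulators carried OCT4 sites in both genotypes and further ones in DKO. Of 20 such genes, 18 were assigned a site called in all 4 libraries (54 sites), against 22.5% of all protein-coding genes, and 15 had a DKO-only site (34 sites), against 24.8% of all genes. None had a WT-only site, as was the case for nearly all genes (0.207% had one). The list was chosen with earlier results known, so these shares are a description. Of the 54 shared sites, 49 were called higher in DKO by limma and 0 lower (0 also at an unadjusted p under 0.05), a share near the 86.3% called higher over all 9434 sites. The median log2 change was 1.15 beside 0.93 over all sites. With the pileup over the lowest background 43 were called higher and 1 lower, a site 38801 bp from the start of Klf5 that turned from 0.73 (adjusted p = 0.000523) to −0.46 (adjusted p = 0.0195). After centring, 16 were called higher and 6 lower.

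At Pou5f1, the gene of OCT4 itself, the site 1972 bp upstream of the start had a fold enrichment of 34.5 and 29.7 in WT and 90.8 and 117 in DKO (log2 change 1.68, SE 0.18, adjusted p = 2.61e-07 by limma). On the scale of the lowest background the change was 1.0. Weaker sites at Pou5f1 were called in some libraries of either genotype. At Sox2, its partner factor, the downstream site 3929 bp from the start had 56.5 and 58.9 in WT and 110 and 135 in DKO (log2 change 1.07, adjusted p = 1.67e-05), and the gene had 4 shared and 4 DKO-only sites in all.

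At Nanog, a homeodomain factor of the same circuit, the 3 shared sites had unlike changes. The promoter site 62 bp upstream of the start, whose sequence is printed above, had 11.7 and 13.3 in WT and 41.8 and 40.3 in DKO (log2 change 1.71, adjusted p = 1.36e-07). The exonic site 5888 bp from the start had 14.6 and 14 in WT and 14.4 and 16.6 in DKO (log2 change 0.12, SE 0.17, adjusted p = 0.525), and no NANOG or SOX2 peak overlapped it. The genotypes overlapped there. The other, 4911 bp upstream, was weak, with 5.83 and 5.57 in WT and 10.3 and 9.33 in DKO.

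Dppa3, a maternal factor that marks naive ESCs, had the largest change on the list. Its site 1744 bp upstream had 65.1 and 67.7 in WT and 284 and 305 in DKO (log2 change 2.15, adjusted p = 4.53e-08), and a DKO-only site stood at its promoter (10.8 and 11.9). The WT background at the upstream site was 2.66 times that of DKO, and on the scale of the lowest background the change was 1.18. The strongest site of the list was 52556 bp from the start of Prdm14, a repressor that keeps ESCs naive, with 152 and 161 in WT and 360 and 408 in DKO. At Tfcp2l1, a target of LIF signalling, the site 2306 bp upstream had 146 and 160 in WT and 278 and 279 in DKO (log2 change 0.87).

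Among the Krüppel-like factors, the 2 shared sites of Klf2 were at 93.7 and 92.6 and at 83.8 and 97.5 in WT. In DKO they were at 215 and 223 and at 236 and 228. The strongest of the 4 shared sites of Klf4 had 78.9 and 82.5 in WT and 163 and 173 in DKO. Esrrb, an orphan nuclear receptor, had 5 shared sites, all called higher, and 3 DKO-only sites. The weakest of the 5, 34712 bp from the start, went from 0.58 to 0.05 with the pileup over the lowest background and was then not called (adjusted p = 0.804). Sall4, a zinc-finger factor, had 2 shared and 5 DKO-only sites, one of them 109 bp upstream of its start (6.4 and 8.4 in the DKO libraries). Zfp42, known as Rex1, was the exception among the ESC markers, as it had no site in all 4 libraries. Its site 13824 bp upstream had 11.3 and 13.8 in WT, no peak in DKO replicate 1 and 5.34 in DKO replicate 2. Zfp42 also had 2 DKO-only sites, and its highest peak was 7.87 in DKO replicate 1 and 11.1 in DKO replicate 2. Stat3 had only 1 peak, in DKO replicate 1 (4.13).

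**Figure D5:**
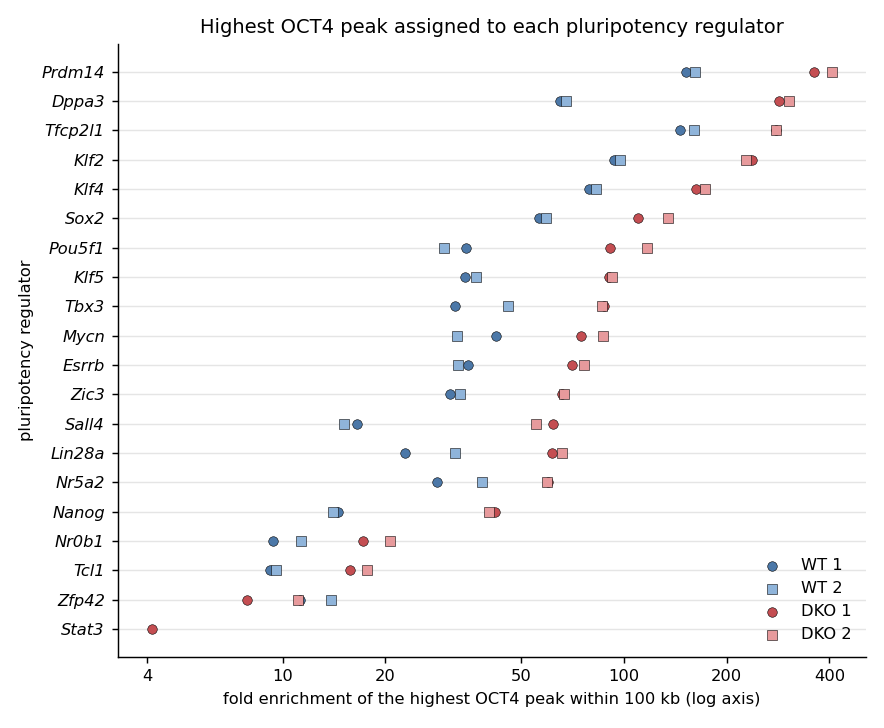
Fold enrichment, on a log axis, of the highest OCT4 peak assigned to each of 20 pluripotency regulators in each of the 4 libraries; the highest peak may be a different site in different libraries. For 18 of the genes both DKO points lie to the right of both WT points; Zfp42 and Stat3 are the others.

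Of 20 known OCT4 and SOX2 targets and signalling genes, 19 (95%) had a shared site (53 sites) and 9 (45%) a DKO-only site, beside 22.5% and 24.8% of all genes. By count, 47 of the 53 sites were called higher and 0 lower by limma (0 also at an unadjusted p under 0.05), which is near the 86.3% called higher over all shared sites, and the median log2 change was 1.14. With the pileup over the lowest background 42 were called higher, and after centring 13 higher and 7 lower. The site nearest Id3, an inhibitor of bHLH factors, went from 104 and 95.5 to 306 and 329, that nearest Gdf3, a TGF-beta family ligand, from 20.5 and 17.9 to 64.3 and 67.5, and that nearest Nodal, another such ligand, from 46.9 and 42.0 to 115 and 129.6. At Rif1, a regulator of replication timing, the 2 shared sites differed in size of change. The promoter site, 589 bp upstream, had 148 and 152 in WT and 154 and 166 in DKO (log2 change 0.09, SE 0.17, adjusted p = 0.611), although both DKO values were above both WT values, and the exonic site 17398 bp from the start had 44.6 and 45.3 in WT and 81.5 and 86.0 in DKO (log2 change 0.90, adjusted p = 7.21e-05). The site of Fgf4, an ESC growth factor, was called higher (log2 change 1.17, 11.9 and 14.4 against 29.0 and 29.6) but not with the pileup over the lowest background (0.18, adjusted p = 0.251), and the WT background there was 2.71 times that of DKO.

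Of 10 genes of formative and primed cells, 6 had a shared site (18 sites, median log2 change 1.26) and 6 a DKO-only site, a share of 60% each beside 22.5% and 24.8% of all genes. All 18 sites were called higher, beside 86.3% of all shared sites, but 16 with the pileup over the lowest background and 6 after centring. The Otx2 site 9356 bp from the start turned from 0.62 to −0.18 (adjusted p = 0.247) on the former scale. Otx2, which guides OCT4 to new enhancers when cells leave the naive state, had 7 shared and 5 DKO-only sites, the strongest going from 26.6 and 29.4 to 82.1 and 99.4. Foxd3 had 3 of each. Dnmt3b, a DNA methyltransferase gene, had no shared site but a DKO-only site 6219 bp upstream (19.1 and 21.3). Its only other site had a weak peak in WT replicate 2 (4.68). Fgf5 had a single weak DKO-only site (3.8 and 5.9), and Pou3f1 had no assigned OCT4 site.

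Of the 19 early lineage genes with a symbol in the annotation, 9 had a shared site (47.4%, beside 22.5% of all genes) and 7 a DKO-only site (36.8%, beside 24.8%), of which 5 had no shared one. Of their 16 shared sites 15 were called higher, beside 86.3% of all shared sites, with a median log2 change of 0.95. With the pileup over the lowest background 14 were called higher, and after centring 2 higher and 1 lower. The DKO-only site near Gata6, a factor of primitive endoderm, had 7.0 and 7.7, below the class medians of 8.09 and 8.58, and that near T, the mesoderm factor Brachyury, had 11.8 and 15.4, above them. Gsc, a homeobox gene of the organiser, had 22.1 and 24.0. Of the Hmgn genes, Hmgn3 and Hmgn5 each had a shared site, at 18 and 17.2 against 39.2 and 39.5 and at 10.4 and 8.68 against 19.1 and 20.8. Hmgn2, deleted in the DKO cells, had 2 DKO-only sites downstream (13.3 and 11 at the stronger), and no site was assigned to Hmgn1. The 3 shared sites of fibroblast markers and the 3 of B cell markers were all called higher, beside 86.3% of all shared sites, with median log2 changes of 0.58 and 1.2. With the pileup over the lowest background 3 and 2 of them were called higher, and after centring 0 and 1, with 1 fibroblast site lower.

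The median strength of a whole list did not follow the number of its peaks. It was 10.5 and 10.3 in WT and 10.2 and 9.69 in DKO (log2 difference −0.07, SE 0.04, adjusted p = 0.252), where limma called 0 of the 16 antibodies (0%) at an adjusted p under 0.05 and 6 at an unadjusted p under 0.05. The DKO lists hold both the stronger shared sites and many weaker sites, and when each library was reduced to its 11140 strongest peaks the log2 difference was 0.97 (adjusted p = 0.00063).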

How the data were processed

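OCT4 ChIP-seq was performed in ESCs of 2 genotypes with 2 replicates each. Per the study's methods and the submitters' processing notes, reads were trimmed with cutadapt 1.16 and mapped to mm9 with BWA 07.17. Peaks were called per library with MACS2 2.1.1.20160309. The study's methods state that duplicates were marked and that reads in blacklisted regions were removed. The authors' deposited narrowPeak lists hold, per peak, a fold enrichment (ratio over the local background), −log10 p and −log10 q values and a score that is 10 times the −log10 q. The read totals are not in the lists. Pileup and background were solved from fold enrichment and −log10 p, which gave a whole pileup within 0.0005 of the p value's log for 99.87% to 99.98% of the peaks of a library; the lowest background was 0.924 and 1.31 reads in WT and 1.03 and 1.43 in DKO.

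Peaks sharing 1 bp were merged. Genes are from GENCODE vM1 (mm9); a site was assigned to the nearest protein-coding transcript start, within 100 kb for gene lists, and promoters were taken from the site's edge. Tfcp2l1 and Tfap2c were found under older symbols through RefSeq synonyms, and Sox1 was not analysed here. Genotypes were compared with limma 3.58.1 in R 4.3.3 on log2 values (0.5 added to promoter and distal counts), without a replicate block, over all 16 antibodies or over all sites called in all 4 libraries, with Benjamini-Hochberg adjustment and a threshold of 0.05. The scripts were tested on simulated data. Named sites were the 10 strongest and 5 strongest promoter sites of each class by mean −log10 q, the 8 largest called changes in each direction, and list genes; sequences were taken from named sites with a motif, and the genes Pou5f1, Sox2, Nanog and Esrrb for them, as well as values singled out at Rif1, Fgf4, Zfp42 and chromosomes 14 and X, were picked with their values in view. The classes, gene lists and tests were chosen with earlier results of these data known. The authors' differential analysis used reads and was not used here.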

Additional observations from a re-analysis of the deposited data

How the results depend on the processing

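Of 133 recomputed values, 100 kept their direction, their side of the threshold or, for counts and shares, their size, and every setting listed in advance was run. Those that did not follow, apart from the adjusted p-values without 1 library and the falls nearest Ube2e2, Ccdc67 and Usp11, which stand with their results above; the cause was not tested. With each library reduced to its 11140 strongest peaks, the difference in median fold enrichment turned from −0.07 to 0.97, the promoter to distal ratio fell to 0.14 and lost its call, and the WT-only and DKO-only classes held 891 and 1129 sites. Matching by summits within 100 bp gave 141 WT-only sites. The promoter share of shared, WT-only and DKO-only sites was 4.62%, 0% and 7.07% with a window of 500 bp and 16.1%, 12.1% and 19% with 5000 bp, and that of DKO-only sites was 8.06% among the strongest peaks. The octamer share of shared and DKO-only sites was 12.3% and 10.9% within 50 bp of the summit. The share with the OCT4 summit inside a NANOG peak of either WT library was 71.6% and 54.3%, where the shares above needed a NANOG site called in both. Of the 8174 calls at shared sites, centring on the median left 3387, quantile normalization 2660 and the pileup over the lowest background, centred, 896. The median change over the lowest background was 0.73. The scale of the lowest background, centred or not, and the raised DKO background were chosen after seeing the data. Leaving out 1 library in turn gave log2 differences of 1.17 to 1.38 for peak number and 1.55 to 1.85 for promoter peaks. For the ratio they were 0.40 to 0.51. The WT-only and DKO-only classes then held 93 to 370 and 11173 to 17573 sites, counts that can only rise when fewer libraries set the class. Where a genotype was left with 1 library, the spread came from the 2 libraries of the other genotype, moderated over all antibodies or sites. The sources used here do not say what same-numbered libraries share. Their differences in fold enrichment had a correlation of 0.0213 over 9434 sites. In both genotypes, though, replicate 2 had more peaks than replicate 1. Its lowest background was also higher (1.31 against 0.924 in WT and 1.43 against 1.03 in DKO). With the replicate as a block, the differences were 1.28, 1.70, 1.24, 0.46 and −0.07 for peak number, promoter peaks, distal peaks, the ratio and median fold enrichment, 8389 shared sites were called (8340 higher, 49 lower) against 8174, and no call on those 5 OCT4 measures changed. With 2 libraries per genotype and no read totals, a difference in depth cannot be told apart from one in binding. Thinning the solved pileups of called peaks to the lowest background gave a log2 difference in peak number of 1.26. Such thinning can drop called peaks but cannot add peaks below the caller's threshold.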
